A study of Mus musculus with 23 samples.

Results

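The MHC class II pathway genes described here are H2-Aa, H2-Ab1, H2-Eb1, Cd74, H2-DMa and Ciita, 6 of the 18194 genes measured on the arrays. They were taken by name, with every probe set annotated to one of these genes alone, which gave 14 of 45101 probe sets. These genes and the gene lists used below were chosen with earlier results of these data known. Their counts beside the share of all probe sets are therefore descriptions and do not test whether they stand out. The study divided mouse CD4+ T cells by 2 surface proteins, CD25 (a chain of the receptor for interleukin-2) and CD49f (integrin alpha-6), and asked how gene expression differed between the 4 populations. The 23 arrays fell into 4 CD25+CD49f+, 5 CD25+CD49f-, 7 CD25-CD49f+ and 7 CD25-CD49f- arrays, all labelled as biological replicates from female mice. Each array was hybridised with biotin-labelled cRNA made from total RNA, and no group carried a treatment or an engineered allele in the labels. The labels used here name no strain, age or organ. Values are log2 signals that the authors made with RMA, so a difference of 1 is a doubling of signal, and the number of arrays limits the precision.

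MHC class II molecules carry peptides from the endosomal pathway to the surface of antigen presenting cells, where CD4+ T cells read them. H2-Aa and H2-Ab1 encode the alpha and beta chains of the I-A molecule and H2-Eb1 the beta chain of I-E. Cd74 encodes the invariant chain that fills the groove until the endosome, H2-DMa a chain of the H2-M molecule that exchanges the remnant of the invariant chain for peptide, and Ciita the coactivator on which transcription of the other members depends. B cells, dendritic cells and macrophages are the main class II positive cells, lymphoid tissue inducer and group 3 innate lymphoid cells carry class II as well, and resting mouse T cells are generally regarded as making little of it. Whether signal in a T cell gate came with other cells is therefore a question for every member.

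Class II genes share a promoter arrangement in which an X box, bound by the RFX complex, lies upstream of a Y box, an inverted CCAAT sequence bound by NF-Y, and Ciita is recruited to this assembly. Promoter windows from RefSeq (assembly GRCm38.p6) were examined for 3 of the 6 members, H2-Aa, H2-Eb1 and H2-DMa. Those of Cd74, H2-Ab1 and Ciita were not examined, so whether they hold the arrangement was not tested. The 150 bases before the start site are shown for H2-Aa (chr17:34287824-34287973, minus strand) and H2-Eb1 (chr17:34305717-34305866, plus strand), both of which differed between the gates. They are set beside H2-Ob (chr17:34238755-34238904, plus strand), a non-member with the same arrangement that followed CD49f in CD25- cells. Also shown is the first of the H2-DMa windows (chr17:34122682-34122831, plus strand), in which the arrangement was not found. Capitals mark the X box core GCAAC and the Y box core ATTGG on either strand.
H2-Aa: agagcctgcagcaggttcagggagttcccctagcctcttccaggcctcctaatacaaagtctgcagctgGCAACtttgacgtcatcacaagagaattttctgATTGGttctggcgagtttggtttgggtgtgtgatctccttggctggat
H2-Eb1: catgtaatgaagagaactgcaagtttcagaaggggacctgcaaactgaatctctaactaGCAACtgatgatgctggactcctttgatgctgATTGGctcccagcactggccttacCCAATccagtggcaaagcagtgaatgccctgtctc
H2-Ob: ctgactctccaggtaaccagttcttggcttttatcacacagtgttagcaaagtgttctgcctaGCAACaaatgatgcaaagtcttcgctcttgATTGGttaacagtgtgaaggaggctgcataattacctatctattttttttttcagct
H2-DMa: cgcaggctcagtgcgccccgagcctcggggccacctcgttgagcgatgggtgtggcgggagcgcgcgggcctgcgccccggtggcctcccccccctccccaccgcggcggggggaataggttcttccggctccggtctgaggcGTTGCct

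In H2-Aa the GCAAC core began 81 bases before the start and was followed after 28 bases by ATTGG. The spacing was 27 bases in H2-Eb1 and 25 in H2-Ob, with the X box core 91 and 87 bases before the start. Over 32851 windows of 250 bases before and 50 after a start, 35.2% held GCAAC and 37.4% held ATTGG, on either strand, while 0.794% held both in this order 20 to 35 bases apart. The second H2-DMa window held no such pair either. Both H2-DMa windows lie inside its locus, which begins at position 34119693. They do not show whether a start at the edge of the locus has the pair. The matches describe letters and are not measured binding sites.

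On the RefSeq assembly GRCm38.p6, H2-DMa, H2-Ab1, H2-Aa and H2-Eb1 lie on chromosome 17 between positions 34119693 and 34316674, Ciita at 10480014 to 10531064 of chromosome 16 and Cd74 at 60803849 to 60812652 of chromosome 18. The gates could be checked on the arrays. Il2ra, which encodes CD25, averaged 9.60 ± 0.18 in CD25+CD49f+, 9.69 ± 0.16 in CD25+CD49f-, 6.84 ± 0.24 in CD25-CD49f+ and 5.42 ± 0.20 in CD25-CD49f- cells (SD, n = 4, 5, 7 and 7). Foxp3, also listed as a check, averaged 9.85 ± 0.20, 9.79 ± 0.08, 8.25 ± 0.22 and 4.74 ± 0.32 in the same order. The CD25- gates thus also differed in Foxp3, by 3.51 ± 0.12 (SE, limma adjusted p = 1.44e-15). Itga6, which encodes CD49f, did not follow its gate: it averaged 9.81 in CD25+CD49f+ cells against 9.64 in CD25+CD49f- cells. Its CD25-CD49f+ mean was 9.36, against 9.79 for CD25-CD49f-. The difference was 0.16 ± 0.10 (SE, limma adjusted p = 1) in CD25+ cells and -0.44 ± 0.08 (SE, limma adjusted p = 5.12e-04), opposite to the gate, in CD25- cells. Whether the transcript follows the surface protein was not tested, and CD49f+ and CD49f- below are the gates as labelled. The T cell gene Cd3e lay between group means of 11.65 and 11.70. Although all mice are labelled female, 10 arrays had Y-linked transcripts and no Xist, 12 had Xist only, and 1 (CD25+CD49f- replicate 5) had both. Every group held both kinds. CD25-CD49f- replicates 1 and 7, CD25-CD49f+ replicate 1 and CD25+CD49f- replicate 5 stood apart from their groups, with a median correlation to the other arrays of the group of 0.967 to 0.982, against at least 0.989 for the rest. Xist read up to 6.499 on the 10 arrays that lacked it, so readings up to that level can come from an absent transcript. They are called the range of an absent transcript below. The Y-linked gene Eif2s3y read only 2.43 to 3.49 on the arrays without Y-linked transcripts. The level of an absent transcript thus differs between probe sets, and a reading in this range does not show absence. All 3 Ciita probe sets, 1 of 2 for H2-DMa and 1 of 4 for H2-Aa stayed at or under 6.499 on all 23 arrays.

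Among CD25+ cells, the I-A chains, the I-E beta chain and the invariant chain were lower in the CD49f+ gate than in the CD49f- gate. The log2 differences of H2-Aa, H2-Ab1, H2-Eb1 and Cd74 were -1.70, -1.54, -1.39 and -1.41, so that signal in CD25+CD49f- cells was between 2.61 and 3.26 times that in CD25+CD49f+ cells. H2-DMa and Ciita did not pass the test. The call was a limma adjusted p under 0.05 over all probe sets of the table, which 1.11% of probe sets passed and 0.911% passed in the lower direction. Of the members, 4 of 6 genes and 5 of 14 probe sets were lower and 0 were higher (0.197% of all probe sets). The median difference of the 14 probe sets was -1.19, against 0.01 over all probe sets.

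For H2-Aa the 4 CD25+CD49f+ arrays read 8.30, 9.49, 9.78 and 8.93, and the 5 CD25+CD49f- arrays 10.71, 10.73, 10.91, 10.61 and 11.20. Every CD25+CD49f+ array lay below every CD25+CD49f- array. The CD25+CD49f+ mean was 9.13 ± 0.65 (SD, n = 4), against a CD25+CD49f- mean of 10.83 ± 0.23 (SD, n = 5), a difference of -1.70 ± 0.27 (SE, limma adjusted p = 4.32e-04). Its partner chain H2-Ab1 read 7.27, 8.79, 8.88 and 8.05 in CD25+CD49f+ cells, against 9.68, 9.94, 9.98, 9.83 and 9.50 in CD25+CD49f- cells. The difference was -1.54 ± 0.33 (SE, limma adjusted p = 0.0146), again without overlap of the gates. For H2-Eb1 the values were 7.79, 8.93, 8.78 and 8.24 in CD25+CD49f+ cells, against 9.80, 9.90, 9.98, 9.93 and 9.49 in CD25+CD49f- cells. This difference was -1.39 ± 0.31 (SE, limma adjusted p = 0.0176).

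The invariant chain gene Cd74 read 8.28, 9.39, 9.53 and 8.70 in CD25+CD49f+ cells, against 10.31, 10.61, 10.47, 10.28 and 10.25 in CD25+CD49f- cells. Its difference was -1.41 ± 0.31 (SE, limma adjusted p = 0.0152). These 4 of 6 members had every CD25+CD49f+ array below every CD25+CD49f- array, as did 2.11% of all probe sets. In all 4 of these genes CD25+CD49f+ replicates 1 and 4 were the lower and replicates 2 and 3 the higher, so that the CD25+CD49f+ arrays spread further than the CD25+CD49f- arrays. Without CD25+CD49f+ replicate 1 or without replicate 4, H2-Aa alone was called: without replicate 1 its difference was -1.43 (limma adjusted p = 0.00372) and those of H2-Ab1, H2-Eb1 and Cd74 were -1.21, -1.17 and -1.18 (limma adjusted p = 0.113 to 0.125).

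**Figure D1:**
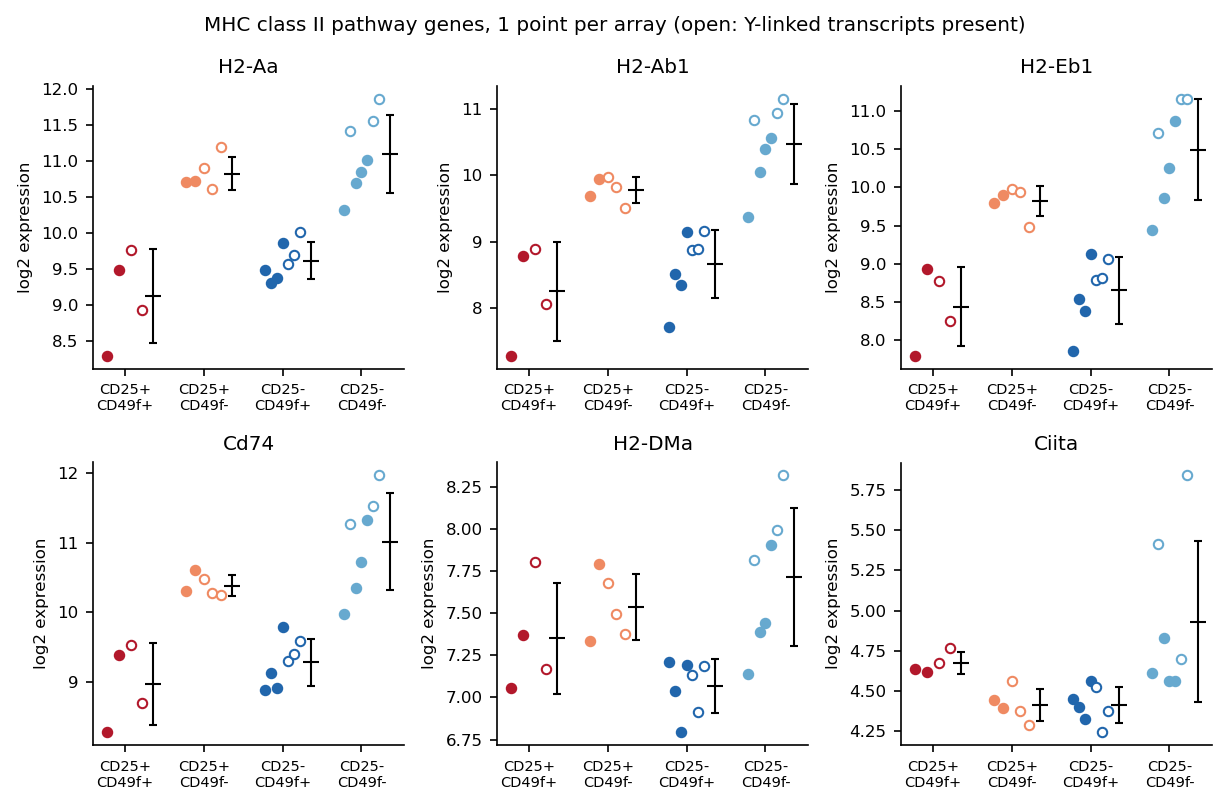
Log2 signal of the 6 members (probe set with the highest mean) on each of the 23 arrays, by gate, with open points for arrays with Y-linked transcripts and a dash and bar for mean and SD. H2-Aa, H2-Ab1, H2-Eb1 and Cd74 are lower in each CD49f+ gate than in the CD49f- gate of the same CD25 class with no overlap. H2-DMa overlaps in both, and Ciita stays under 6 on all arrays.

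H2-DMa, of the peptide exchange step, read 7.06, 7.37, 7.80 and 7.17 in CD25+CD49f+ cells, against 7.34, 7.79, 7.68, 7.49 and 7.38 in CD25+CD49f- cells. The gates overlapped, and the difference was -0.19 (95% interval -0.57 to 0.20, limma adjusted p = 1). Ciita read 4.63, 4.62, 4.67 and 4.77 in CD25+CD49f+ cells, against 4.44, 4.39, 4.56, 4.37 and 4.29 in CD25+CD49f- cells. Every CD25+CD49f+ array lay above every CD25+CD49f- array, as in 1.39% of all probe sets, but all within the range of an absent transcript, with a difference of 0.26 (95% interval -0.12 to 0.64, limma adjusted p = 1). Among further probe sets, 1435290_x_at of H2-Aa was also lower (-1.71 ± 0.30, limma adjusted p = 0.00166). The probe sets 1452431_s_at of H2-Aa and 1425477_x_at and 1451721_a_at of H2-Ab1 had differences of -1.61, -1.13 and -1.26 and did not pass (limma adjusted p = 0.564 to 0.62). In these 3 the lowest CD25+CD49f- array was replicate 5, which stood apart. Without the 4 arrays that stood apart, the differences of H2-Aa, H2-Ab1, H2-Eb1 and Cd74 were -1.61, -1.61, -1.47 and -1.45 and all 4 were called.

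The presence of Y-linked transcripts was treated as a batch. Within the arrays that lacked them, H2-Aa, H2-Ab1, H2-Eb1 and Cd74 differed between the CD25+ gates by -1.82, -1.78, -1.49 and -1.63, with a call for H2-Aa alone. Within the arrays that had them and lacked Xist, the differences were -1.40, -1.44, -1.45 and -1.26, with calls for H2-Ab1 and H2-Eb1. These fits held 2 arrays of each CD25+ gate. With Y-linked transcripts as a term, all 4 genes were called, at -1.66, -1.49, -1.34 and -1.37.

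Among CD25- cells all 6 members were lower in the CD49f+ gate than in the CD49f- gate. The differences of H2-Aa, H2-Ab1, H2-Eb1 and Cd74 lay between -1.85 and -1.48, and those of H2-DMa and Ciita were -0.64 and -0.52. Of all probe sets 9.83% were called here, 4.37% as lower and 5.45% as higher, and 11 of 14 member probe sets were lower and 0 higher. The median member difference was -1.54, against -0.03 over all probe sets.

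H2-Aa ranged from 9.31 to 10.02 with a median of 9.58 in CD25-CD49f+ cells, against 10.32 to 11.87 with a median of 11.02 in CD25-CD49f- cells. The gates did not overlap, and the difference was -1.48 ± 0.21 (SE, n = 7 each, limma adjusted p = 2.27e-05). H2-Ab1 ranged from 7.71 to 9.15 with a median of 8.87 in CD25-CD49f+ cells, against 9.38 to 11.16 with a median of 10.57 in CD25-CD49f- cells (-1.82 ± 0.27, limma adjusted p = 2.67e-05). H2-Eb1 ranged from 7.86 to 9.12 with a median of 8.78 in CD25-CD49f+ cells, against 9.44 to 11.16 with a median of 10.72 in CD25-CD49f- cells (-1.85 ± 0.24, limma adjusted p = 6.46e-06). Both chains were free of overlap between the gates.

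Cd74 ranged from 8.88 to 9.78 with a median of 9.30 in CD25-CD49f+ cells, against 9.97 to 11.97 with a median of 11.27 in CD25-CD49f- cells (-1.73 ± 0.24, limma adjusted p = 1.62e-05). In all, 4 of 6 members had every CD25-CD49f+ array below every CD25-CD49f- array, as did 1.34% of all probe sets. H2-DMa overlapped, at 6.79 to 7.21 with a median of 7.13 in CD25-CD49f+ cells, against 7.14 to 8.32 with a median of 7.81 in CD25-CD49f- cells (-0.64 ± 0.15, limma adjusted p = 0.00417). Ciita lay at 4.24 to 4.56 with a median of 4.40 in CD25-CD49f+ cells, against 4.56 to 5.84 with a median of 4.70 in CD25-CD49f- cells (-0.52 ± 0.15, limma adjusted p = 0.0222). Its 2 highest arrays were CD25-CD49f- replicates 7 and 2, at 5.84 and 5.41, still below the highest reading of an absent transcript. Without replicate 2 the Ciita difference was -0.44 and was not called (limma adjusted p = 0.0584).

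Within CD25-CD49f- cells, H2-Aa and H2-Ab1 differed without overlap by the Y-linked transcripts, and H2-Eb1, Cd74, H2-DMa and Ciita overlapped. H2-Aa read 11.42 to 11.87 on the 3 arrays with them and 10.32 to 11.02 on the 4 without. H2-Ab1 read 10.83 to 11.16 on the arrays with them and 9.38 to 10.57 on those without. H2-Eb1 read 10.72 to 11.16 with them and 9.44 to 10.87 without, and Cd74 11.27 to 11.97 with them and 9.97 to 11.32 without. H2-DMa read 7.81 to 8.32 with them and 7.14 to 7.90 without, and Ciita 4.70 to 5.84 with them and 4.56 to 4.83 without. The share of all probe sets that separate in this way was not taken, so the split is not read as particular to these genes. Between the CD25- gates the 4 genes differed by -1.85, -2.01, -2.13 and -2.16 within arrays with Y-linked transcripts and by -1.21, -1.67, -1.64 and -1.41 within arrays without them, in the order H2-Aa, H2-Ab1, H2-Eb1 and Cd74, and were called in both. H2-DMa was called within arrays with them (-0.96) and not within arrays without them (-0.41, limma adjusted p = 0.28). Ciita was called in neither, at -0.94 and -0.21.

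**Figure D2:**
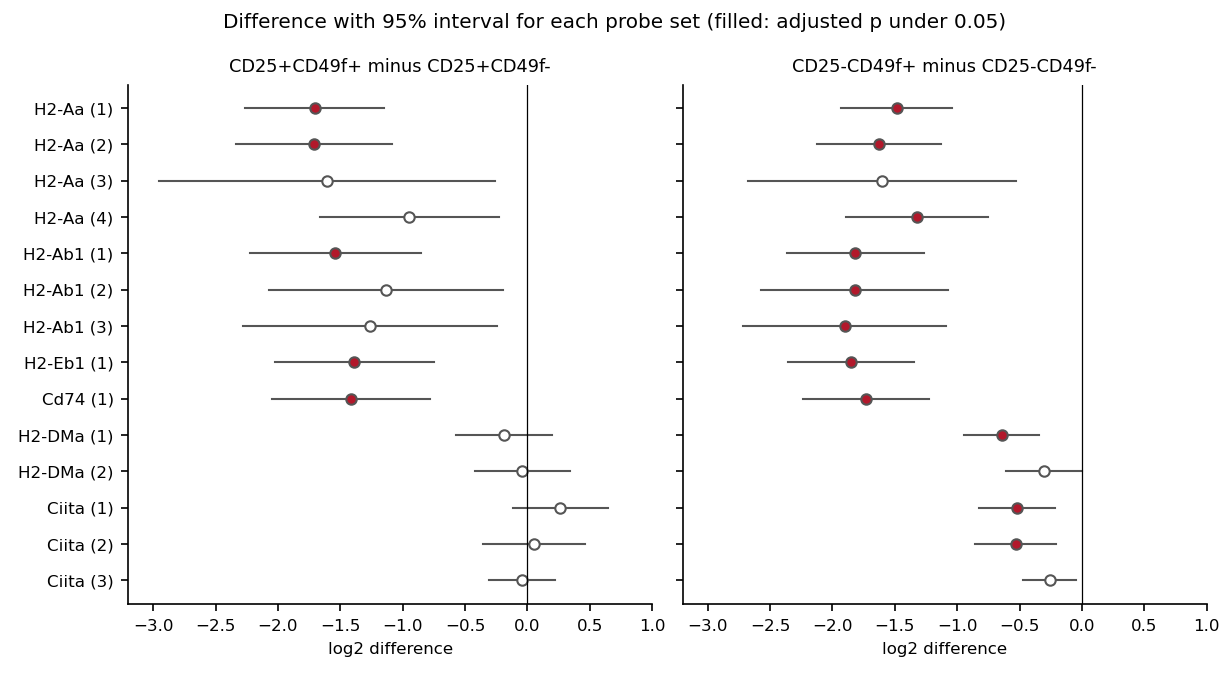
Log2 difference with 95% interval for each of the 14 member probe sets between the CD49f+ and CD49f- gates of CD25+ (left) and CD25- cells (right), with filled points for limma adjusted p under 0.05 and number 1 for the probe set with the highest mean of its gene. The called points lie below 0, 5 in CD25+ cells and 11 in CD25- cells.

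The effect of CD49f was not shown to differ between CD25+ and CD25- cells for any member. In the interaction, 0 of 6 genes were called by limma, while 3.12% of all probe sets were (0.603% higher and 2.52% lower) and 5223 probe sets had an unadjusted p under 0.05. The interaction of H2-Aa was -0.22 (95% interval -0.93 to 0.49), that of H2-Ab1 0.28 (-0.60 to 1.16), that of H2-Eb1 0.46 (-0.35 to 1.27) and that of Cd74 0.32 (-0.49 to 1.13). The intervals are wide beside the CD49f differences themselves. Ciita had the smallest adjusted p, with an interaction of 0.78 ± 0.24 (SE, limma adjusted p = 0.0783).

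Between CD25+CD49f+ and CD25-CD49f+ cells no member was called by limma, while 3.23% of all probe sets were (1.58% higher and 1.65% lower) and 4447 probe sets had an unadjusted p under 0.05. H2-Aa averaged 9.13 ± 0.65 in CD25+CD49f+ cells, against 9.62 ± 0.26 in CD25-CD49f+ cells, a difference of -0.49 (95% interval -1.01 to 0.02). H2-Ab1, H2-Eb1 and Cd74 differed by -0.41, -0.21 and -0.31, and H2-DMa and Ciita by 0.28 and 0.26. In 1 of 6 members, Ciita, the 2 gates did not overlap, as in 5.50% of all probe sets. Between CD25+CD49f- and CD25-CD49f- cells, where 9.94% of probe sets were called (6.06% higher and 3.88% lower), 1 of 6 members was: Ciita, at 4.41 ± 0.10 in CD25+CD49f- cells, against 4.93 ± 0.50 in CD25-CD49f- cells (-0.52 ± 0.16, limma adjusted p = 0.0393), again within the range of an absent transcript. In 0 of 6 members did every CD25+CD49f- array lie below every CD25-CD49f- array, against 1.87% of all probe sets. H2-Aa, H2-Ab1, H2-Eb1, Cd74 and H2-DMa differed by -0.27, -0.69, -0.68, -0.63 and -0.18 without a call. Without CD25-CD49f- replicate 1, the lowest of that gate for all 4 genes H2-Aa, H2-Ab1, H2-Eb1 and Cd74, calls were made for H2-Ab1, H2-Eb1, Cd74 and Ciita, at -0.88, -0.85 and -0.81 for the first 3. The Ciita call was lost without CD25-CD49f- replicate 2 (limma adjusted p = 0.0889) and without any of CD25+CD49f- replicates 1, 2, 4 and 5 (limma adjusted p = 0.066 to 0.0849). The comparisons share groups, and their values are therefore not independent of each other.

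H2-Aa, H2-Ab1, H2-Eb1 and Cd74 varied together over all arrays, but not within every gate. Their pairwise Pearson correlations over the 23 arrays lay between 0.941 and 0.988, and between 0.797 and 0.957 after the group means were subtracted. Within CD25+CD49f- cells H2-Aa ran against H2-Ab1, H2-Eb1 and Cd74 (-0.561, -0.774 and -0.240). Pairs without H2-Aa lay at 0.565 to 0.932 there. In each of the other gates every pair was at 0.714 or above. H2-DMa correlated with these 4 at 0.770 to 0.842 and Ciita at 0.428 to 0.521. The arrays share normalization and gates, and the correlations are descriptions. The mean of the 4 genes was 7.91 to 9.24 in CD25+CD49f+, 10.11 to 10.33 in CD25+CD49f-, 8.49 to 9.48 in CD25-CD49f+ and 9.78 to 11.54 in CD25-CD49f- cells. In order of level the gates ran from CD25+CD49f+ and CD25-CD49f+, which overlapped, to CD25+CD49f- and CD25-CD49f-, which overlapped as well.

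Over the same arrays, the 8 other genes with the highest correlation to this mean were Tgm2 (0.958), H2-DMb2 (0.943), Grk3 (0.930), Tns3 (0.919), Pik3ap1 (0.906), Hhex (0.906), Basp1 (0.902) and Rnase6 (0.894). Tgm2 encodes a transglutaminase, H2-DMb2 a beta chain of H2-M, and Pik3ap1 an adaptor of phosphoinositide 3-kinase signalling. Tgm2 averaged 6.26 ± 0.51 in CD25+CD49f+, 7.39 ± 0.31 in CD25+CD49f-, 6.18 ± 0.29 in CD25-CD49f+ and 7.93 ± 0.71 in CD25-CD49f- cells. Tns3 was lower in the CD49f+ gate in both CD25 classes, by -0.93 (limma adjusted p = 0.00758) in CD25+ and -0.84 (limma adjusted p = 3.56e-04) in CD25- cells. So was Basp1, by -1.39 (limma adjusted p = 9.51e-07) and -0.98 (limma adjusted p = 1.15e-06). In the range of an absent transcript lay the CD25+CD49f+ and CD25-CD49f+ means of Basp1 (6.06 and 6.30) and Tgm2, and the CD25+CD49f+ mean of Tns3 (6.41). Differences from these means are fitted values and not measured folds.

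The rest of the class II pathway did not move as one. Of 21 listed genes 20 were measured, and between CD25+CD49f+ and CD25+CD49f- cells 0 were called by limma, with a median difference of -0.02. Of all probe sets 1.11% were called there, so 0 of 20 lies near that share. H2-DMb2 averaged 7.52 ± 0.51 in CD25+CD49f+ cells, against 8.19 ± 0.23 in CD25+CD49f- cells (-0.67, limma adjusted p = 0.737). Between CD25-CD49f+ and CD25-CD49f- cells 5 were lower and 4 higher, beside 4.37% and 5.45% of all probe sets. The lower ones were H2-DMb2 (-1.31), the protease gene Ctsl (-1.63), H2-Ob (-0.77), whose product inhibits H2-M, Marchf1 (-0.60), whose product removes class II from the surface, and H2-Eb2 (-0.42). The higher ones were Cd83 (1.48), whose product stabilises surface class II, the protease gene Lgmn (0.76), Nfyb (0.41), a subunit of NF-Y, and Rfx5 (0.32), a subunit of RFX. Marchf1 (4.81 to 5.60) and Lgmn (5.48 to 6.24) had every group mean in the range of an absent transcript, so the sizes of their differences are not read as measured folds. H2-Oa and H2-Eb2 carry the same X and Y arrangement as H2-Aa, and H2-Oa was not called in either CD49f comparison (-0.11 in CD25+ and -0.48 in CD25- cells).

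Cd83 separated the gates by CD25. It averaged 9.65 ± 0.15 in CD25+CD49f+, 9.44 ± 0.25 in CD25+CD49f-, 7.97 ± 0.16 in CD25-CD49f+ and 6.48 ± 0.54 in CD25-CD49f- cells, with a difference of 2.96 ± 0.19 between the 2 CD49f- gates (limma adjusted p = 1.74e-11). Its interaction was the 1 call of this list (-1.27 ± 0.27, limma adjusted p = 0.00607), beside 3.12% of all probe sets. Between CD25+CD49f+ and CD25-CD49f+ cells 4 of the 20 were higher (Cd83, H2-Ob, Rfx5 and the protease gene Ctss, by 1.69, 1.12, 0.42 and 0.34) and 1 was lower (Ifi30, the lysosomal thiol reductase gene, with a difference of -0.77). Of all probe sets 1.58% were called higher and 1.65% lower there. Between the CD49f- gates, CD25+ against CD25-, 2 were higher (Cd83 and Rfx5, the second by 0.70) and 3 lower (Ifi30, Marchf1 and H2-Eb2, by -1.20, -0.69 and -0.35). Here 6.06% of all probe sets were called higher and 3.88% lower, so these counts lie near those shares. Of the 9 class I pathway genes 0 were called by limma in any of the 5 comparisons, in which 1.11% to 9.94% of all probe sets were called. Group means of B2m, the class I light chain gene, lay between 13.35 and 13.45. The costimulatory gene Cd86 differed the other way from H2-Aa, H2-Ab1, H2-Eb1 and Cd74. It averaged 8.19 ± 0.35 in CD25+CD49f+ cells, against 7.41 ± 0.18 in CD25+CD49f- cells (0.78 ± 0.18, limma adjusted p = 0.0204). In CD25-CD49f+ cells it averaged 7.17 ± 0.21, against 6.69 ± 0.34 in CD25-CD49f- cells (0.48 ± 0.14, limma adjusted p = 0.0272). Cd80 and Cd40, the other costimulatory genes listed, were not called in either CD49f comparison.

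**Figure D3:**
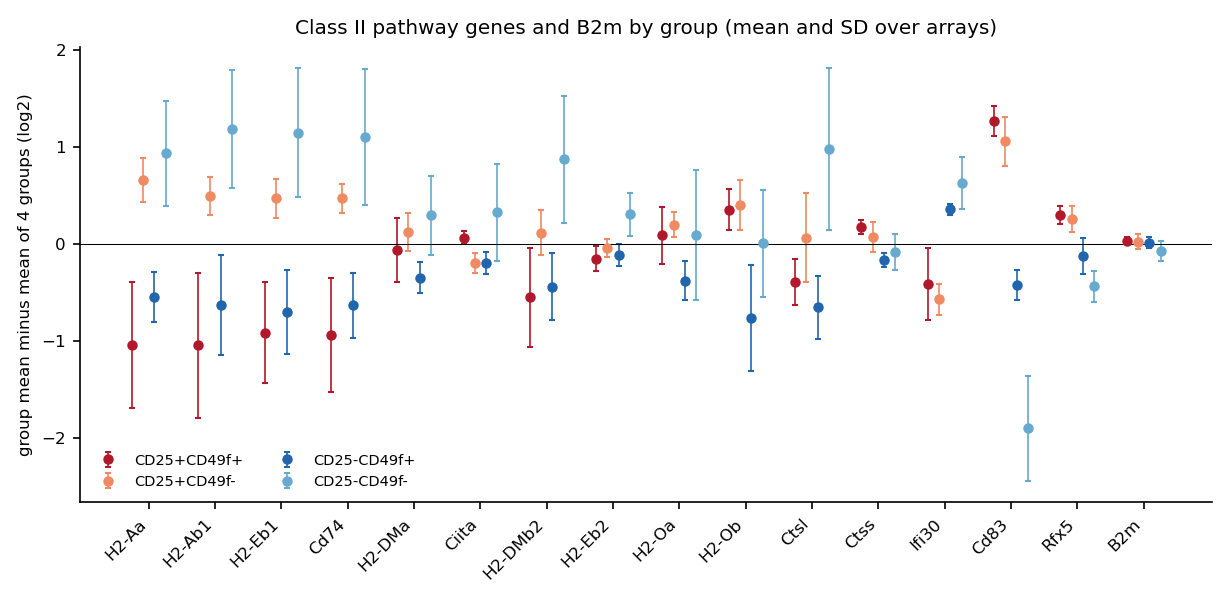
Group means of 16 antigen presentation genes, each as its log2 difference from the mean of its 4 gate means, with SD bars. H2-Aa, H2-Ab1, H2-Eb1 and Cd74 lie lowest in the CD49f+ gates, Cd83 runs with CD25, and B2m stays near 0 in every gate. The class II chain H2-Ob, also plotted, averages 8.73 in CD25+CD49f+ and 8.38 in CD25-CD49f- cells.

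Markers of other cells were read beside the members, since fewer cells of a type and less RNA per cell cannot be told apart in bulk samples. Between CD25+CD49f+ and CD25+CD49f- cells the markers called were 1 of 19 for B cells (Blk, -0.80), 1 of 14 for conventional dendritic cells (Batf3, -1.78), 1 of 10 for plasmacytoid dendritic cells (Ccr9, -2.36) and 2 of 20 for monocytes and macrophages (Adgre1, -0.93, and Fcer1g, -1.98). All of these were lower, beside 0.911% of all probe sets called lower, and their CD25+CD49f+ means, from 5.16 to 6.31, lay in the range of an absent transcript. The median differences of these lists were 0.08, 0.00, 0.01 and 0.04. Mean levels of the lists were 6.21 to 6.80 in CD25+CD49f+ and 6.10 to 6.80 in CD25+CD49f- cells for B cells, and 6.06 to 6.24 and 6.12 to 6.33 for conventional dendritic cells. They were 6.43 to 6.87 in CD25+CD49f+ and 6.73 to 7.13 in CD25+CD49f- cells for plasmacytoid dendritic cells, and 5.59 to 5.98 and 5.71 to 6.04 for monocytes and macrophages. The defining markers Itgax (6.22 in CD25+CD49f+ cells, against 6.16 in CD25+CD49f- cells), Flt3 (6.33 and 6.35), Siglech (5.75 and 5.76) and Cd79a (5.21 and 5.11) lay in the range of an absent transcript in both gates. Csf1r (7.78 and 7.73), Lyz2 (8.83 and 8.55) and, of the B cell list, Ighm (12.99 and 12.77), Cd22 (7.64 and 7.90) and Cd79b (6.99 and 6.61) lay above it. Ms4a1 lay above it in CD25+CD49f+ cells (6.997) and not in CD25+CD49f- cells (6.43). Of the B cell markers 7 of 19 had a mean above it in each of the 2 gates.

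Markers of lymphoid tissue inducer and group 3 innate lymphoid cells differed between the CD25+ gates in the same direction as the called members. Of 14 measured, 9 were lower in the CD49f+ gate and 0 higher, with a median of -1.43. Of all probe sets 0.911% were called lower and 0.197% higher. Klrb1b averaged 4.06 ± 0.16 in CD25+CD49f+ and 8.27 ± 0.05 in CD25+CD49f- cells (-4.21, limma adjusted p = 2.11e-19). Tmem176b averaged 7.23 ± 0.18 in CD25+CD49f+ and 10.58 ± 0.04 in CD25+CD49f- cells, and Kit 5.70 ± 0.32 and 8.40 ± 0.44. The CD25+CD49f+ means of Klrb1b and Kit lie in the range of an absent transcript, so their differences are fitted values and not measured folds. The list mean was 7.14 to 7.28 in CD25+CD49f+, 8.34 to 8.84 in CD25+CD49f-, 7.11 to 7.45 in CD25-CD49f+ and 6.91 to 7.27 in CD25-CD49f- cells, so that CD25+CD49f- cells stood above the other gates. Il23r and Il22 were not analysed here, and several of the markers are also made by T cell subsets. The part of such cells in the class II signal was not tested.

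**Figure D4:**
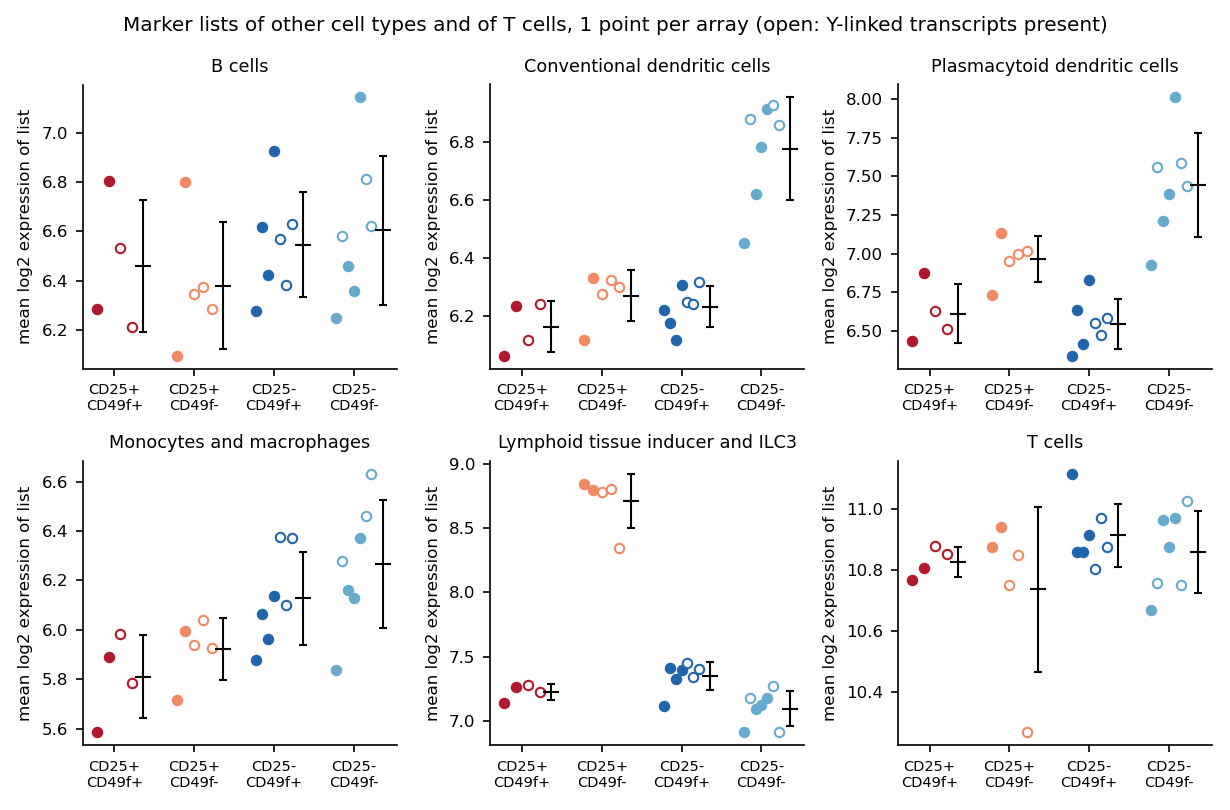
Mean log2 level of the marker lists on each array, by gate, with open points for arrays with Y-linked transcripts and a dash and bar for mean and SD. Dendritic cell lists are highest in CD25-CD49f- cells, and the list of lymphoid tissue inducer and group 3 innate lymphoid cells is highest in CD25+CD49f- cells.

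In CD25- cells it was dendritic cell markers that differed between the gates in the same direction as the members. Between CD25-CD49f+ and CD25-CD49f- cells, 9 of 10 plasmacytoid and 6 of 14 conventional dendritic cell markers were lower and 0 higher. Of all probe sets 4.37% were called lower and 5.45% higher. Itgax averaged 6.66 ± 0.28 in CD25-CD49f+ and 8.58 ± 0.82 in CD25-CD49f- cells (-1.92, limma adjusted p = 6.74e-06), Klra17 6.35 ± 0.62 and 8.52 ± 0.84 (-2.17), and Siglech 5.73 ± 0.16 and 7.09 ± 0.59 (-1.36). In CD25-CD49f+ cells Siglech, Klra17 and Flt3 (6.40) lay in the range of an absent transcript. The list mean was 6.12 to 6.32 in CD25-CD49f+ and 6.45 to 6.93 in CD25-CD49f- cells for conventional, and 6.34 to 6.83 and 6.93 to 8.01 for plasmacytoid dendritic cells. B cell markers went both ways, with 2 of 19 higher and 4 lower, as did those of monocytes and macrophages, with 3 of 20 higher and 4 lower, and 7 of 19 B cell markers lay above the range of an absent transcript in each gate. Cd79a lay within it in both (5.27 in CD25-CD49f+ cells, against 5.20 in CD25-CD49f- cells), Cd22 (8.31 and 8.17) and Ms4a1 (7.20 and 6.63) lay above it in both, and Cd79b above it in CD25-CD49f+ cells alone (6.60 and 5.91). The part of these cells in the class II difference was not tested.

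The mean of H2-Aa, H2-Ab1, H2-Eb1 and Cd74 overlapped between CD25+CD49f- and CD25-CD49f- cells. Of the 4 lists of antigen presenting cells, that of conventional dendritic cells did not overlap between these gates, at 6.12 to 6.33 in CD25+CD49f- and 6.45 to 6.93 in CD25-CD49f- cells. The plasmacytoid dendritic cell list overlapped, at 6.73 to 7.13 in CD25+CD49f- and 6.93 to 8.01 in CD25-CD49f- cells. So did the lists of B cells, at 6.10 to 6.80 and 6.25 to 7.14, and of monocytes and macrophages, at 5.71 to 6.04 and 5.84 to 6.63, in the same order of gates. Itgax averaged 6.16 ± 0.31 in CD25+CD49f- cells, against 8.58 ± 0.82 in CD25-CD49f- cells (-2.42 ± 0.28, limma adjusted p = 7.13e-07).

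**Figure D5:**
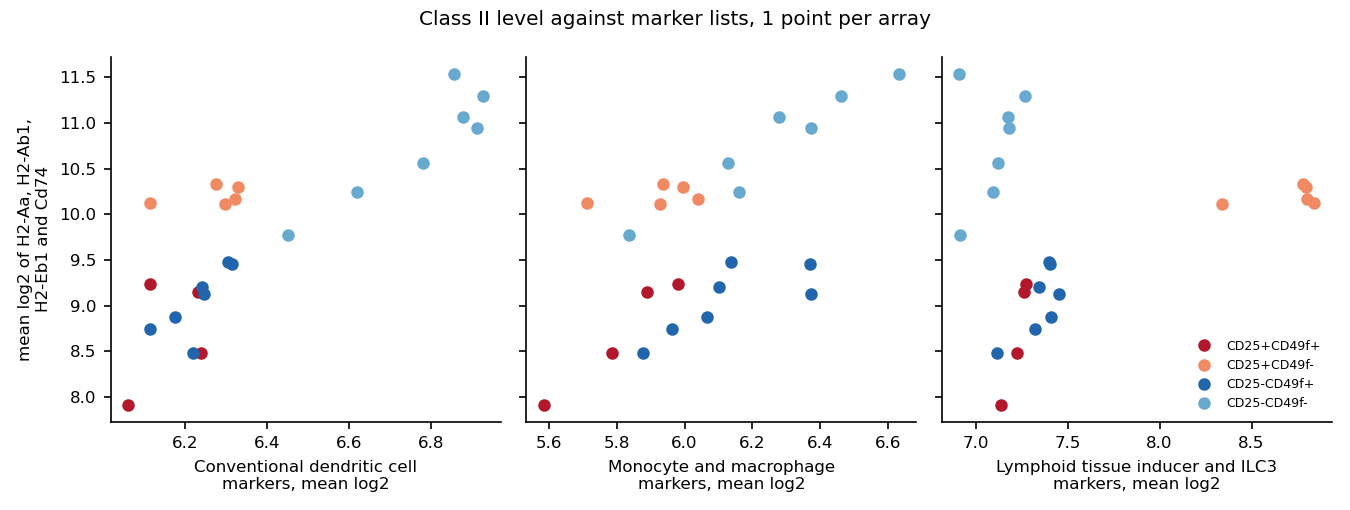
Mean log2 level of H2-Aa, H2-Ab1, H2-Eb1 and Cd74 on each array, plotted against the mean level of marker lists, with a colour for each gate. The CD25+CD49f- arrays lie at 10.11 to 10.33 with a conventional dendritic cell list of 6.12 to 6.33, and the CD25-CD49f- arrays at 9.78 to 11.54 with a list of 6.45 to 6.93. The CD25+CD49f+ and CD25-CD49f+ arrays lie at 7.91 to 9.48 with a list of 6.06 to 6.32.

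Within a gate, the members could be set against the antigen presenting cell lists where 7 arrays were available. Of 48 relations (6 members, 4 lists and the 2 CD25- gates), 9 had an adjusted p under 0.05 by a two-sided exact permutation test of Pearson's r and 3 by that of Spearman's rho, adjusted over the 48. In CD25-CD49f- cells Cd74 rose with the monocyte and macrophage list (r = 0.961, rho = 0.964, exact permutation p = 0.00119 and 0.00278, adjusted p = 0.0190 and 0.0444, n = 7). So did H2-DMa (r = 0.975, rho = 0.964, exact permutation p = 7.94e-04 and 0.00278, adjusted p = 0.0190 and 0.0444) and H2-Eb1 (r = 0.944, rho = 0.964, exact permutation p = 5.95e-04 and 0.00278, adjusted p = 0.0190 and 0.0444). Cd74, H2-DMa and H2-Eb1 correlated with each other at 0.959 to 0.990 in this gate, so their relations to the list are not separate results. Of the 20 monocyte and macrophage markers, 11 had every group mean in the range of an absent transcript. In CD25-CD49f- cells 8 had a mean above it. With the conventional dendritic cell list H2-Eb1 had r = 0.947 and rho = 0.786 (exact permutation p = 0.00238 and 0.0480, adjusted p = 0.0229 and 0.118). Of the 14 markers of that list 9 had a mean above this range in CD25-CD49f- cells. No relation passed in either gate with the B cell list (r of 0.38 to 0.79 in CD25-CD49f+ and -0.03 to 0.73 in CD25-CD49f- cells) or the plasmacytoid dendritic cell list (0.36 to 0.81 and 0.01 to 0.77).

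In CD25-CD49f+ cells 1 relation passed, H2-Aa with the conventional dendritic cell list (r = 0.912, rho = 0.929, exact permutation p = 0.00516 and 0.00675, adjusted p = 0.0307 and 0.054, n = 7). After the 2 arrays farthest from the median marker level were left out, the smallest exact permutation p that 5 arrays allow is 0.00833, too large for 1 or a few of 48 relations to pass the adjustment, so no call was read from these fits. The smallest p was reached with the monocyte and macrophage list in CD25-CD49f+ cells by H2-Ab1 (r = 0.970) and H2-Eb1 (r = 0.966), neither of which had passed with 7 arrays. With 5 arrays r was 0.891 for Cd74, 0.956 for H2-DMa and 0.921 for H2-Eb1 with the monocyte and macrophage list (exact permutation p = 0.0583, 0.0250 and 0.0333) and 0.965 for H2-Aa with the conventional dendritic cell list (exact permutation p = 0.0333). With the 3 or 4 arrays of each kind by Y-linked transcripts, no value within batches was taken, and CD25-CD49f- replicates 1 and 7, the lowest and highest arrays of that gate for the monocyte and macrophage list, both stood apart.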

How the data were processed

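The deposited table held log2 values of 45101 probe sets on 23 arrays, which the authors made with RMA per the submitters' processing notes (version not given in the sources used). RMA corrects background and quantile-normalizes the arrays together, so a change shared by all genes would not appear. No scaling was added. Of the probe sets 34958 named 1 gene, 932 several and 9211 none, and 34754 of the 34958 matched RefSeq (GRCm38.p6) by gene identifier. Each comparison was fitted over all probe sets and 4 groups with limma's lmFit, contrasts.fit and eBayes (limma 3.58.1, R 4.3.3), with Benjamini-Hochberg adjustment and calls at an adjusted p under 0.05. A gene is given by its probe set with the highest mean. Permutation tests used scipy 1.17.1, and figures matplotlib 3.10.9, in Python 3.11.15. The fit was tested on simulated data.

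Named were all members, called genes of the other pathway lists and, from each marker list, the brightest and the defining genes or those called. Il2ra, Itga6 and Foxp3 and the costimulatory genes Cd80, Cd86 and Cd40 were named too. So were the 8 genes most correlated with the mean of H2-Aa, H2-Ab1, H2-Eb1 and Cd74. Beyond that rule, Klra17, Klrb1b, Kit, Tmem176b, Cd79b and Cd22 and the single called markers were named after their values were seen. Members and lists were chosen with earlier results of these data known. Arrays above a log2 level of 6 for Eif2s3y had Y-linked transcripts, and those above 8 for Xist had Xist. The replicates are labelled biological, but no label says that they came from separate animals, so p-values cover only the spread between these samples. The alternatives were a replicate block, array weights, trended robust eBayes, quantile or median scaling, brighter probe sets, gene-level fits, compared groups alone, a stricter threshold and leaving out each array. Fits without the 4 arrays that stood apart and by Y-linked transcripts were added after seeing the data.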

Additional observations from a re-analysis of the deposited data

Results flagged for a closer look

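In 88 groups of member probe sets and marker lists, 10 held an array separated from the rest of its group by more than Dixon's 95% limit, and chance gives this for about 1 in 20 groups. CD25+CD49f- replicate 5, which had both Xist and Y-linked transcripts, read low for 3 class II probe sets: 7.17 for 1452431_s_at of H2-Aa (next lowest 8.90), 6.82 for 1425477_x_at of H2-Ab1 (next 8.35) and 6.55 for 1451721_a_at of H2-Ab1 (next 7.92). On the same array 2 other H2-Aa probe sets read highest of the gate, 1438858_x_at at 11.20 (next 10.91) and 1435290_x_at at 10.65 (next 10.37). The same array had the lowest mean of its gate for the class I pathway list (10.8), the T cell list (10.3) and the list of lymphoid tissue inducer and group 3 innate lymphoid cells (8.34). CD25-CD49f- replicate 7 read highest of its gate for 1459872_x_at of H2-DMa (6.46, next 5.50) and 1421211_a_at of Ciita (5.39, next 4.46). CD25+CD49f- replicate 1 had the lowest conventional dendritic cell list of its gate (6.12, next 6.28). CD25-CD49f+ replicate 1 had the lowest list of lymphoid tissue inducer and group 3 innate lymphoid cells of its gate (7.11, next 7.32).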

How the results depend on the processing

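Of 1099 refitted member differences 1051 kept their direction and side of the threshold, 27 lost and 13 gained a call, and 8 changed sign, none of which was a called difference. In a comparison of 2 gates, leaving out an array of another gate changes the test but cannot change the difference. The direction was fixed in advance in those refits, and the total is therefore not a measure of stability. For CD49f within CD25- cells the count of called members stayed at 4 to 6 over the alternatives (5 to 6 on leaving out an array). For CD49f within CD25+ cells it was 1 at an adjusted p under 0.01, 1 in arrays without Y-linked transcripts, 2 in arrays with them and without Xist, and 1 to 4 on leaving out an array, against 4. For CD25 within CD49f- cells it was 0 with a fixed replicate block, brighter probe sets, the compared groups alone, an adjusted p under 0.01, arrays without Y-linked transcripts or without the arrays that stood apart, 3 in arrays with Y-linked transcripts and without Xist, and 0 to 4 on leaving out an array, against 1. For CD25 within CD49f+ cells array weights gave 1 (H2-Aa, -0.60, limma adjusted p = 0.0438), against 0. For the interaction array weights, 1 probe set per gene and leaving out the arrays that stood apart gave 1 each (Ciita, 0.75, 0.78 and 0.64), and leaving out an array 0 to 1, against 0. The cause of these shifts was not tested. Of the marker relations 0 passed without the 2 farthest arrays, against 9, but 5 arrays allow no exact permutation p under 0.00833, so this count says nothing about stability.

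The sign changes were H2-Eb1 for CD25 within CD49f+ cells (0.0228 with the fixed replicate block, 0.0006 without CD25+CD49f+ replicate 1, -0.3784 to 0.0006 on leaving out an array), H2-DMa for CD25 within CD49f- cells (0.10 without Y-linked arrays) and interactions of H2-Aa (0.0166 with the mean of probe sets, 0.0545 without CD25+CD49f+ replicate 1 within a range of -0.4365 to 0.0545, 0.447 in Y-linked arrays), H2-Ab1 (-0.11) and Cd74 (-0.21), both in arrays without Y-linked transcripts.

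Replicate numbers were not used as pairs in the main fits. Over 29 pairs of arrays with the same number, deviations from the group means correlated at -0.454 to 0.519 (median 0.063), and 12 pairs were over 0.1. Over 166 pairs with other numbers they correlated at -0.481 to 0.678 (median -0.006), and 54 pairs were over 0.1. In both CD25+ gates replicates 1 and 2 had Xist only and replicates 3 and 4 Y-linked transcripts only. In both CD25- gates replicates 3 and 4 had Xist only. Replicate 2 had Y-linked transcripts only in CD25-CD49f- and Xist only in CD25-CD49f+ cells, and replicate 5 the reverse. Numbers 2 to 5 therefore do not mark the same source across the gates. The overlapping ranges do not decide whether arrays with the same number and the same kind of sex-linked transcripts were paired. The fixed replicate block joins arrays by number alone. With it 4 members were called for CD49f within CD25+ and 6 within CD25- cells (H2-Aa at -1.66 and -1.48). Signals near the reading of an absent transcript, which hold all of Ciita, limit what can be said of those probe sets.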
